A study of Mus musculus with 15 samples.

Results

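The immunoglobulin heavy and light chain genes of mouse liver were followed in RNA-sequencing libraries from young and old wild-type mice and from old mice lacking S6K1. Members were taken from the deposited gene counts as every gene whose symbol begins with Igh, Igk or Igl and names a V segment or a constant region, with at least 30 counts summed over the 15 libraries. The rule gave 68 of 37991 genes. They were 50 kappa V segments, 8 heavy chain V segments, 3 lambda V segments, 4 heavy chain constant genes, 1 kappa constant gene (Igkc) and 2 lambda constant genes (Iglc2 and Iglc3). Of 147 genes with such names, 79 lay under the limit and held 572 counts together, against 71832 counts in the members. Just inside the limit were Igkv17-121 with 31 counts and Igkv1-99 with 32, and just outside it were Igkv8-28 and Igkv3-12 with 28 each.

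Whole livers were sampled from female C57BL/6 mice, 1 animal per library and 5 animals per group. Young WT animals were 90 days of age. Old WT and old KO animals were both 600 days of age, and old KO carried a germline deletion of Rps6kb1, the gene of ribosomal S6 kinase 1. There was no young KO group, so age and genotype could not be crossed. The deletion was present in every cell of the animal, B cells included. Libraries are named here by group and by the animal number in the labels. They held 21801754 to 38065359 counts, and Rps6kb1 fell in old KO against old WT by 1.17 on the log2 scale (SE 0.0979, edgeR adjusted p 8.54e-06), with every old KO library below every WT library.

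Antibodies are made by B lymphocytes and, in far larger amounts, by plasma cells, which B cells become after activation. In each developing B cell a heavy chain V segment is joined to D and J segments and a light chain V segment to a J segment, so a B cell and its descendants transcribe a single heavy chain V segment and, as a rule, a single light chain V segment. The constant region sets the class: Ighm encodes the mu chain of IgM, made first, and the gamma genes encode the chains of IgG, reached by class switching. In mice most light chains are kappa. Hepatocytes do not make antibody, but they carry dimeric IgA into bile through the polymeric immunoglobulin receptor. A whole-liver library therefore reads immunoglobulin RNA from whatever B-lineage cells the tissue and its blood hold, and in such a library more cells and more RNA per cell cannot be told apart.

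The V segments were read against the NCBIM37 genome, the same build as the mm9 used for mapping. V gene promoters carry an octamer that B-cell factors bind, in opposite orientation in heavy and light chain genes. Shown are 7 segments whose promoters display this. Among the members of its own class, kappa V or heavy chain V, each led the counts of a library or, for Igkv4-57-1, came second in old KO 1. Each is given as 40 bases read 5′ to 3′ in the direction of the gene, with the octamer in capitals.
Igkv3-2 (chr6:70648358-70648397, plus strand): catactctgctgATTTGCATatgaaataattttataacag
Igkv4-57-1 (chr6:69494966-69495005, minus strand): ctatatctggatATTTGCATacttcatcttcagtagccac
Igkv12-89 (chr6:68785374-68785413, minus strand): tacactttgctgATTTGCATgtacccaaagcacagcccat
Igkv14-111 (chr6:68206295-68206334, plus strand): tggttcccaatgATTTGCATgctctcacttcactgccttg
Ighv1-9 (chr12:115822291-115822330, minus strand): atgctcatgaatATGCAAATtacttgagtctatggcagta
Ighv9-3 (chr12:115379416-115379455, minus strand): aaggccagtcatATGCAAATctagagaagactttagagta
Ighv8-12 (chr12:116886649-116886688, minus strand): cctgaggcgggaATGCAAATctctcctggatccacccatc
The octamer was searched on both strands, as ATGCAAAT or ATTTGCAT, in the 250 bases before each annotated gene start. It was present before all 8 heavy chain V members, always as ATGCAAAT, before 35 of 50 kappa V members, always as ATTTGCAT, and before 3 of 3 lambda V members. Over all 37205 genes with a position, 2.1% had it in the same window. The exact octamer was absent from this window before Igkv5-39, the segment with the most counts. Its annotated model is a single exon of 287 bases, shorter than the 347 exon bases of its family member Igkv5-43. The window before its annotated start may therefore miss its promoter, which was not examined. Before kappa segments it stood 89 to 109 bases from the annotated start. These matches describe the sequence and say nothing of use in the libraries.

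The other feature examined was the recombination signal, a heptamer directly after the V segment where the joining enzyme cuts. A pair of kappa and a pair of heavy chain segments are shown with the last 15 bases of the segment, the heptamer CACAGTG in capitals and the bases that follow it.
Igkv3-2 (chr6:70649047-70649106, plus strand): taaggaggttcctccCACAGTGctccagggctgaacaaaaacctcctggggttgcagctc
Igkv12-89 (chr6:68784795-68784854, minus strand): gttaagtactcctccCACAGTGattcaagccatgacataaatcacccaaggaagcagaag
Ighv1-9 (chr12:115821735-115821794, minus strand): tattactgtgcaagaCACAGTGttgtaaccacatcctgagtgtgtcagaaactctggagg
Ighv9-3 (chr12:115378858-115378917, minus strand): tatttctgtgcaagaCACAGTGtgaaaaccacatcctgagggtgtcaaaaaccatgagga
This exact heptamer lay within 10 bases after the annotated end of 43 of 50 kappa V, 5 of 8 heavy chain V and 0 of 3 lambda V members. Of all genes, 0.7% had it there. Igkv5-39 was not among the segments with the heptamer. In 16 kappa members it was followed, after 12 bases, by the exact nonamer ACAAAAACC.

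Igkv5-39 is shown in full because it held more counts than any other V segment and led the kappa V counts of 5 libraries. It is a single exon of 287 bases at chr6:69850418-69850704 on the minus strand. Capitals mark the 25 bases that differ from its family member Igkv5-43, to which it was 91.3% identical.
Igkv5-39: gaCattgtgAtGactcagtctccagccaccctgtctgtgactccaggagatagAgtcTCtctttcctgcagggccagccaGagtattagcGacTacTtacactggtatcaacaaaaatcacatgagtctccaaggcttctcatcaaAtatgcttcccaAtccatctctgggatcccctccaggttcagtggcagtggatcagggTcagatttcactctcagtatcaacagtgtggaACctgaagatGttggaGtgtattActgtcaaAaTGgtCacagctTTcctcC
Every 50-base window of this exon, the length of the reads, occurred once in the genome. Over the kappa V members a median of 76.7% of windows were unique and 8 members were under 50%, so reads of those segments may be lost or split among relatives. Antibody genes also acquire mutations in activated B cells, and mutated reads may fail to map.

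Immunoglobulin RNA was scarce in young livers, and its median was more than 10 times as high in each old group. Expression is given as CPM, the counts divided by the library size after TMM scaling. The 68 genes summed to 8.79, 5.40, 13.3, 12.8 and 11.1 CPM in young WT 1, 2, 3, 4 and 6. For old WT 1, 4, 5, 7 and 10 the sums were 139, 97, 64.6, 240.8 and 119.9 CPM. For old KO 1, 2, 4, 5 and 6 they were 1091, 216.5, 93.8, 338.3 and 264.5 CPM. All 10 old libraries lay above all 5 young ones, while the ranges of old WT and old KO overlapped. The medians of 11.1, 119.9 and 264.5 CPM put old WT 10.8-fold and old KO 23.9-fold above young WT, and old KO 2.21-fold above old WT. The members were chosen on these counts, of which young WT gave 1600, old WT 19171 and old KO 51061, so these sums are descriptive. Old KO 1 alone held 40.6% of all member counts. Even there the genes took 0.111% of the library, compared with 0.000531% in young WT 2.

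**Figure D1:**
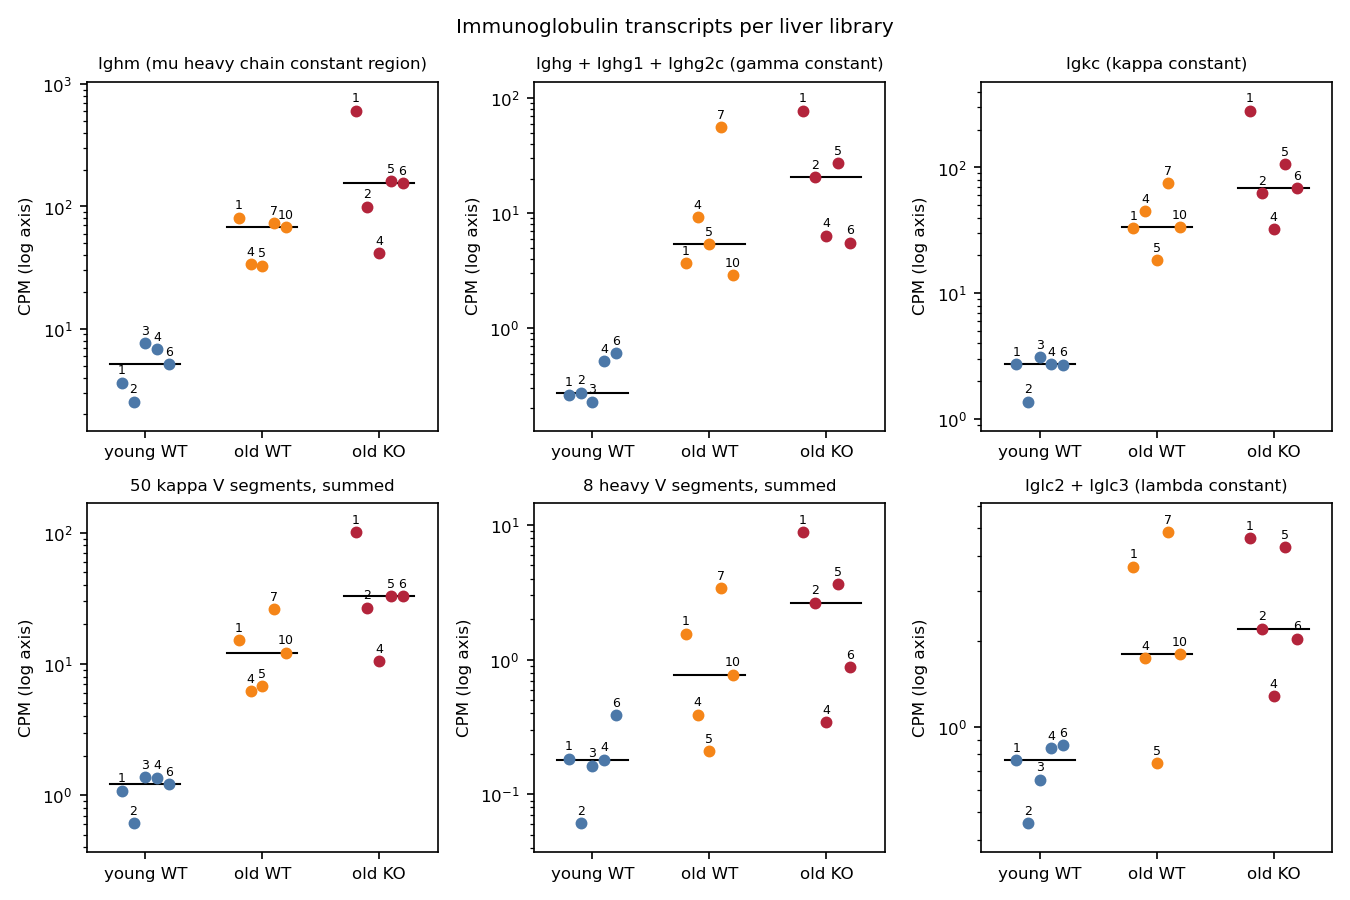
Each point is 1 library, labelled by its animal number, with CPM on a log axis for Ighm, the 3 gamma constant genes, Igkc, the summed kappa V and heavy chain V segments, and the 2 lambda constant genes; bars are group medians. Ighm, the gamma genes, Igkc and the kappa V segments separate all young from all old libraries, old KO 1 is the highest library in all panels but the lambda one, and old WT and old KO overlap throughout.

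Of the 68 members, 17 had enough counts to be tested, and these passed through their level in old libraries. In old WT against young WT, 13 of the 17 rose and none fell (edgeR quasi-likelihood test, adjusted p under 0.05 over 14258 genes), where 9.92% of all genes tested rose. In 9 members every old WT library was above every young WT library, against 5.78% of all genes. The median log2 fold change was 4.02 over the 17 members and 0.01 over all genes. Because members low in every group could not enter the test, these counts do not stand for the whole family. Of all 68 members, 8 had no count in any young library.

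Ighm, the constant region of IgM (chromosome 12, 114659078 to 114660941, minus strand), was the most abundant member in 13 of 15 libraries. It had 3.63, 2.53, 7.60, 6.81 and 5.17 CPM in the young WT libraries, in the order above. The old WT values were 80.9, 33.7, 32.8, 73.4 and 68 CPM, those of old KO 607.4, 99.4, 41.6, 161.1 and 154.7 CPM. The lowest old library was thus more than 4 times the highest young one. The log2 fold change of old WT against young WT was 3.49 (SE 0.592, edgeR adjusted p 0.00146), and that of old KO against young WT was 5.37 (SE 0.638, edgeR adjusted p 8.26e-05).

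Igkc, the constant region of every kappa chain (chromosome 6, 70676429 to 70676751, plus strand), was the most abundant member in old WT 4 and 7. The young values were 2.74, 1.37, 3.10, 2.74 and 2.72 CPM. Old WT gave 33.0, 45, 18.4, 75.1 and 33.4 CPM. Old KO gave 283.1, 62.5, 32.2, 106.1 and 68.1 CPM. It rose with age by 4.02 on the log2 scale (SE 0.547, edgeR adjusted p 0.000367), with no overlap between young and old. In counts per kilobase of exon, Igkc stood at 1.70 to 5.65 times Ighm in all libraries.

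The gamma genes encode the heavy chains of the IgG subclasses. The gene named Ighg lies between Ighg2c and Ighg1 (chromosome 12, 114544600 to 114546144), the place of Ighg2b. Its young WT levels were 0.0790, 0.0916, 0.163, 0.271 and 0.345 CPM. Old WT levels were 2.37, 6.44, 1.67, 29 and 1.99 CPM, compared with 46.9, 9.30, 2.96, 6.37 and 2.46 CPM for old KO. Old WT 7 and old KO 1 were far above the other libraries of their groups. Ighg rose with age by 5.49 (log2, SE 1.20, edgeR adjusted p 0.00600), and by 4.08 without old WT 7.

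Ighg2c, the IgG2c gene, gave 0.0263, 0.183, 0.0652, 0.0904 and 0.0862 CPM among young libraries and 1.19, 1.89, 3.55, 23.8 and 0.478 CPM among old WT libraries. Old KO values were 8.13, 10.4, 2.57, 9.73 and 2.18 CPM, so every old library exceeded every young one and old WT 7 was the highest of all. The rise in old WT was 6.04 (log2, SE 1.17, edgeR adjusted p 0.00303), the largest among the tested members, and it was 4.27 without old WT 7. For Ighg1, the IgG1 gene, young libraries had 0 to 0.173 CPM and old WT libraries 0.0937, 0.925, 0.149, 3.52 and 0.404 CPM, next to 23.0, 0.835, 0.857, 11.3 and 0.882 CPM for old KO. Its young and old WT ranges overlapped and its difference with age did not pass the test (log2 fold change 3.33, SE 1.46, edgeR adjusted p 0.122), although DESeq2 called it (3.41, adjusted p 0.0358) and the edgeR value was 1.96 without old WT 7. Old KO exceeded young WT in Ighg1 (6.22, SE 1.32, edgeR adjusted p 0.00383). No test compared the gamma genes with each other.

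Per kilobase of exon, the 3 gamma genes made 3.73% to 13.5% of the mu plus gamma counts in young WT. In old WT the share was 5.47%, 26.5%, 16.5%, 49.2% and 5.28% in libraries 1, 4, 5, 7 and 10. Among old KO animals it was 14.7%, 20.4%, 16.3%, 18.0% and 4.35% in libraries 1, 2, 4, 5 and 6. IgG transcripts were therefore about as abundant as IgM transcripts in old WT 7, while old WT 1, old WT 10 and old KO 6 stayed within the young range. The young values rest on 7 to 17 gamma counts per library.

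The lambda constant genes rose less than Igkc. Iglc2 increased by 1.94 (log2, SE 0.503, edgeR adjusted p 0.0150) and Iglc3 by 1.71 (SE 0.531, edgeR adjusted p 0.0350) in old WT against young WT, the latter call being lost without old WT 1 (1.30, adjusted p 0.112) and without each of 6 other libraries. Lambda made 13.2%, 15.3%, 10.3%, 14.4% and 14.7% of the light chain constant counts per kilobase in young WT. The share was 2.07% to 5.71% among old WT and 0.875% to 2.13% among old KO libraries, so every old library lay below every young one. The ranges of old WT and old KO overlapped. The difference between the rises of Igkc and of the lambda genes was not tested. Iglc2 and Iglc3 are similar in sequence, with 79.9% and 91.1% of windows unique, and counts may be missing from both. They were the only lambda constant genes named among those analysed, so the share covers these 2 alone. The summed lambda V segments differed more, their medians standing 6.42-fold (old WT) and 18.2-fold (old KO) above young WT. The lambda constant medians stood 2.36-fold and 2.90-fold above it. Young lambda V sums rest on 3 to 10 counts per library. Iglv1, the lambda V segment with the most counts, ranged over 0.0527 to 0.163 CPM (young WT), 0.268 to 1.03 CPM (old WT) and 0.186 to 7.53 CPM (old KO), and passed the test in old KO against young WT (4.63, SE 0.797, edgeR adjusted p 0.00107) but not in old WT against young WT (2.56, SE 0.871, edgeR adjusted p 0.0501).

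**Figure D2:**
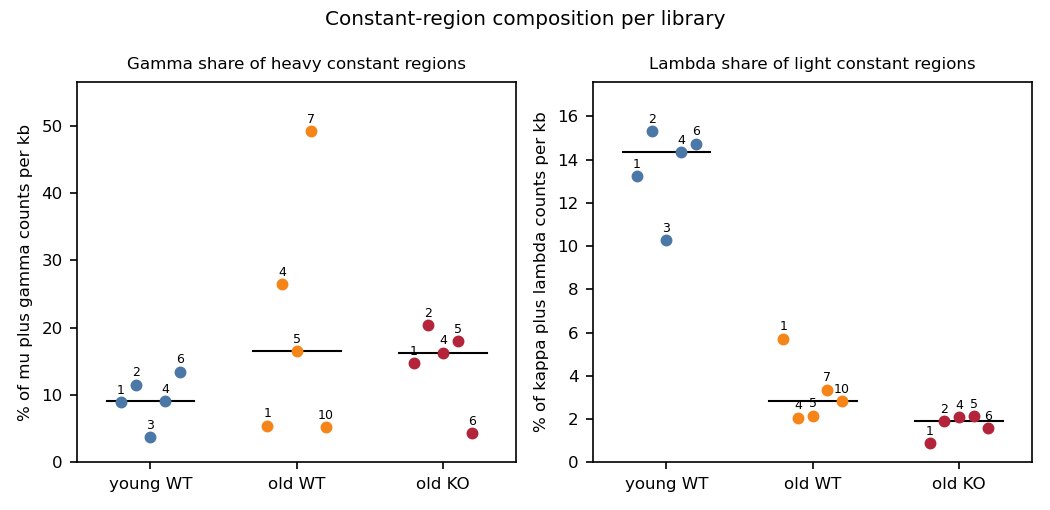
Each point is 1 library, labelled by its animal number, with bars at group medians; left, the gamma share of mu plus gamma counts per kilobase, and right, the lambda share of kappa plus lambda counts per kilobase, both in percent from 0. The gamma share is highest in old WT 7, at 49.2%. The lambda share, from Iglc2 and Iglc3, is above 10% in all 5 young libraries and below 6% in all 10 old ones.

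In old KO against young WT, 16 of the 17 tested members rose, with none falling, against 12.0% of all genes tested, and 13 did not overlap, against 7.32% of all genes. The median log2 fold change was 5.37. This comparison shares its young WT libraries with the previous one. Iglc3 was the member that did not pass (1.46, SE 0.542, edgeR adjusted p 0.0613). It did pass with DESeq2 (adjusted p 0.0273), with the 10 libraries compared alone (0.0377) and in the fits that left out old KO 4 (0.0281), old WT 5 (0.0444) or old WT 1 (0.04996). The largest rise among the tested members was that of Igkv3-2 (7.78, SE 1.31, edgeR adjusted p 0.000933), followed by Igkv5-39, Igkv12-46 (6.56), Ighg and Ighg1 (6.22 each). Without old KO 1 the rise of Igkv3-2 was 6.02, below the 6.82 of Igkv5-39, and those of Ighg and Ighg1 were 4.85 and 5.12, so this order rests on that library. Ighm and Igkc then rose by 4.47 and 4.73.

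No member passed the test between old KO and old WT, where 0.533% of all genes did. DESeq2 also called 0. At an unadjusted edgeR p under 0.05, 10 of the 17 were higher in old KO, against 4.85% of all genes. The fold change was positive for 14 members and negative for 3 (Iglc3, Igkv19-93 and Igkv14-111). These members entered the test through their level in old libraries and were read from the same animals. Old KO 1 held 40.6% of all member counts. They are therefore not independent draws to set beside the share of all genes. No tested member had every old KO library above every old WT library, which 1.12% of all genes had. The difference in Ighm was 1.88 (log2, SE 0.538, edgeR adjusted p 0.146) and 0.98 without old KO 1. That of Igkc was 1.43 (SE 0.467, edgeR adjusted p 0.212) and 0.71 without old KO 1. For Ighg it was 0.73 (SE 0.815, edgeR adjusted p 0.802) and turned to -0.64 without old KO 1, and for Ighg2c it was 0.11 (SE 0.745, edgeR adjusted p 0.981). Ighg1 had 2.89 (SE 0.989, edgeR adjusted p 0.234), and 1.79 without old KO 1 or 4.26 without old WT 7. With standard errors of this size the differences of the gamma genes are poorly determined.

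**Figure D3:**
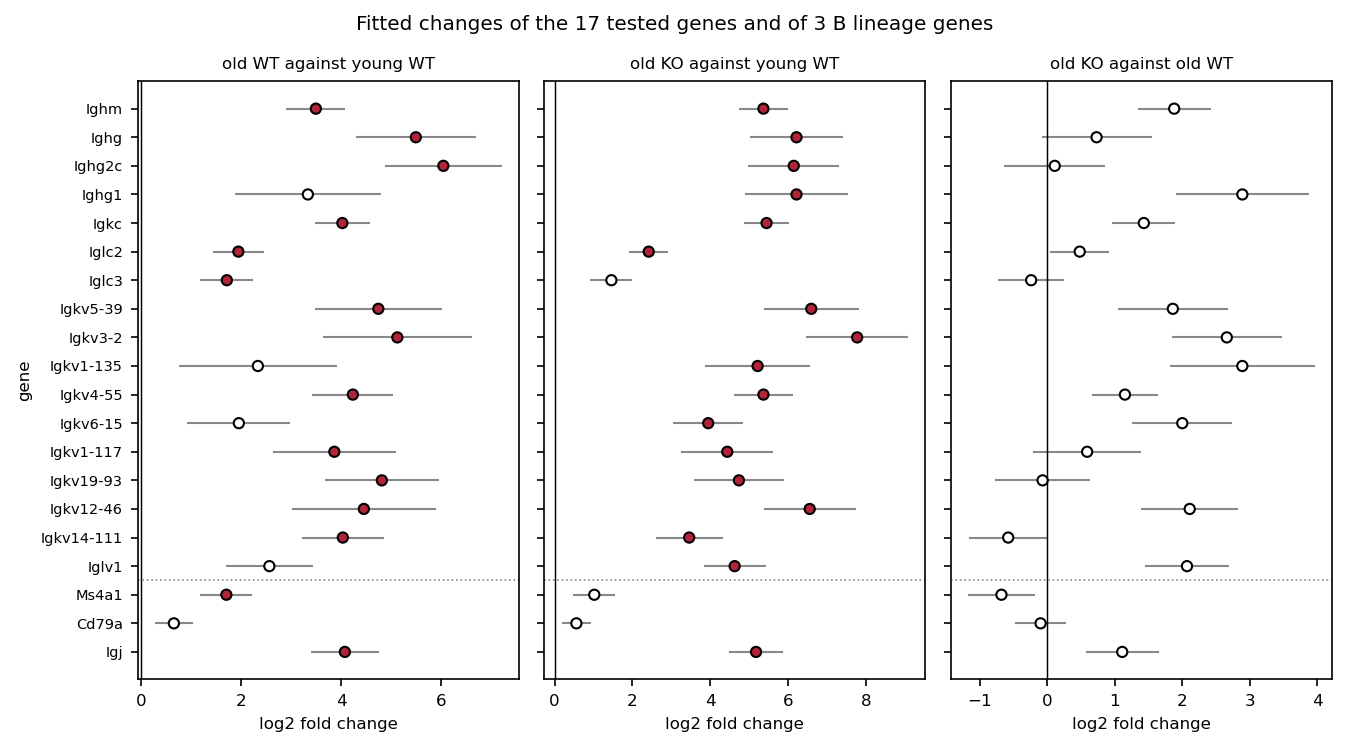
Fitted log2 fold changes with their SE in the 3 comparisons for the 17 tested immunoglobulin genes and, below the dotted line, 3 B-lineage genes; filled points have an edgeR adjusted p under 0.05, and the x axes differ between panels. In both comparisons with young WT the immunoglobulin genes and Igj lie to the right of Cd79a, and none of the points in old KO against old WT is filled.

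Which V segments carried the light chain counts differed from animal to animal. The kappa V segments were read in 20 to 45 counts per young library, 175 to 708 per old WT library and 244 to 2693 per old KO library. In young WT the leading segment held 3 to 8 counts, too few to rank: its share was 13.3% to 21.4%, and even in young WT 3, with 8 of 42 counts, the exact 95% binomial interval ran from 8.60% to 34.1%. Such intervals cover counting error only.

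In old WT the leading kappa segments were Igkv5-39 in library 1, with 33.5% of kappa V counts (exact 95% interval 29.3% to 37.9%), and in library 5, with 19.8% (14.8% to 25.6%). Igkv14-111 led in library 4 with 26.9% (20.5% to 34.1%), Igkv12-89 in library 7 with 15% (12.4% to 17.8%) and Igkv3-2 in library 10 with 16.9% (13.0% to 21.4%). The fewest segments that together held 50% of the kappa V counts numbered 5, 3, 4, 7 and 5 for old WT 1, 4, 5, 7 and 10.

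In old KO the spread was wider. Igkv5-39 held 562 of 709 kappa V counts in old KO 6, or 79.3% (76.1% to 82.2%), and 45% (41.4% to 48.7%) in old KO 2. Igkv3-2 led in old KO 1 with 24.6% (22.9% to 26.2%) and in old KO 4 with 16.4% (12% to 21.7%), while in old KO 5 Igkv3-2 and Igkv4-68 had 55 counts each, 7.01% of the total. By the same measure 3, 2, 6, 11 and 1 segments held 50% of the counts in old KO 1, 2, 4, 5 and 6. Old KO thus included both the most concentrated and the most even library of the old animals. The group medians of 5 segments in young WT, 5 in old WT and 3 in old KO differed by less than the SD of old KO, 4.04.

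Depth differed between groups, so every library was also thinned to the 20 kappa V counts of the smallest one. The medians were then 3.81, 3.44 and 2.64 segments for young WT, old WT and old KO. Libraries of similar depth still differed, as old KO 5 needed 11 segments with 785 counts and old KO 6 needed 1 with 709.

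**Figure D4:**
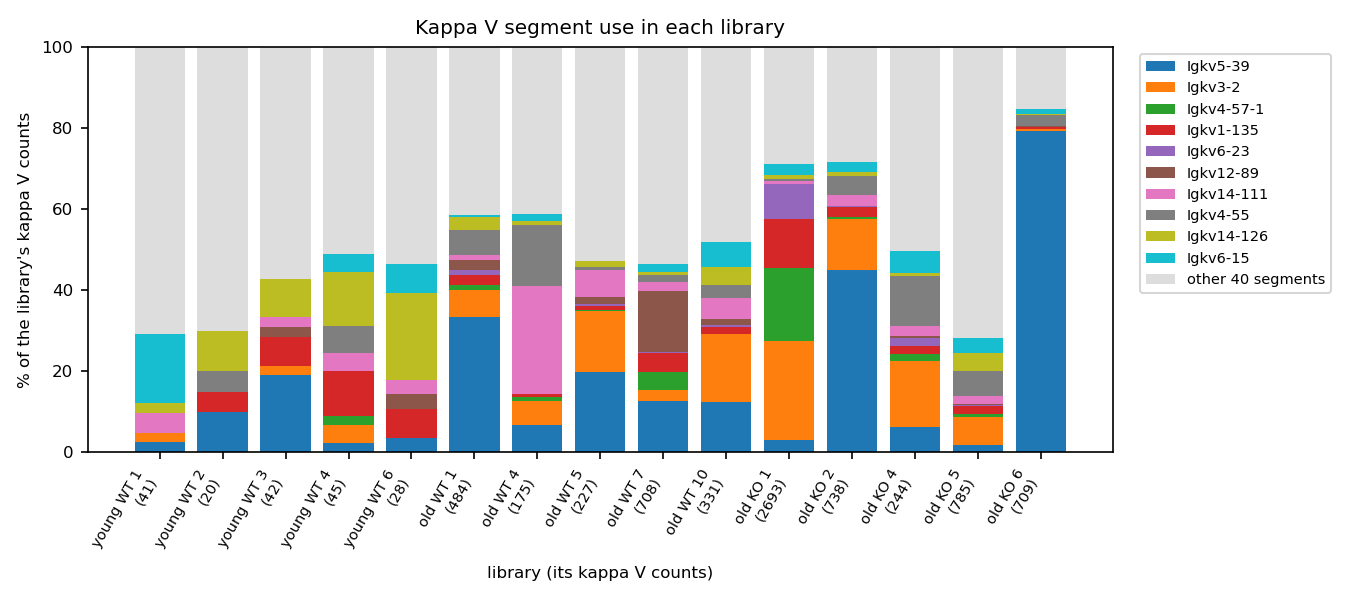
Each bar is 1 library, with its kappa V counts in parentheses, divided into the percent of those counts that fell to each of 10 named segments, with the other 40 in grey. Igkv5-39 takes 79.3% of old KO 6, 45% of old KO 2 and 33.5% of old WT 1 but 1.78% of old KO 5, and the young bars rest on 20 to 45 counts.

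Igkv5-39 gave 0.0263, 0.0611, 0.261, 0.0301 and 0.0431 CPM among young WT libraries. Among old WT libraries it gave 5.06, 0.427, 1.34, 3.26 and 1.51 CPM, and among old KO libraries 3.07, 12.1, 0.643, 0.587 and 26.1 CPM. Every old library was above every young one, and the old KO values spanned more than 40-fold. Its rise was 4.74 in old WT (log2, SE 1.27, edgeR adjusted p 0.0175) and 6.60 in old KO (SE 1.22, edgeR adjusted p 0.00160), both against young WT, and old KO did not pass against old WT (1.86, SE 0.820, edgeR adjusted p 0.390). The rises were 5.74 and 7.60 without young WT 3, and that of old KO was 5.57 without old KO 6. As a share of kappa V counts it ranged over 2.22% to 19.0% (young WT), 6.86% to 33.5% (old WT) and 1.78% to 79.3% (old KO).

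Igkv3-2, at chromosome 6 from 70648462 to 70649061, had 0 to 0.0603 CPM in young WT, from 4 counts in all. Old WT libraries gave 1.00, 0.356, 1.01, 0.733 and 2.06 CPM, old KO libraries 24.8, 3.38, 1.71, 2.31 and 0.186 CPM. Old KO 1 was the highest library and old KO 6, where Igkv5-39 led, the lowest of all old ones. With so few young counts the pooled ratio of old WT to young WT was 40.5 with a counting interval of 15.5 to 150.5. The call in old WT (5.12, SE 1.5, edgeR adjusted p 0.0264) was lost without young WT 1, young WT 2 or old WT 10, at adjusted p-values of 0.0625, 0.0607 and 0.0539.

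Several segments were seen almost only in 1 animal. Among the 61 V members, 18 had over 50% of their counts in a single library and 8 had over 75%. Old KO 1 held 89.9% of the 537 counts of Igkv4-57-1, 92.1% of the 252 counts of Igkv6-23, 89.0% of the 91 counts of Igkv2-112 and 75.5% of the 429 counts of Igkv1-135, whereas it held 37.0% of all kappa V member counts. Old WT 7 held 77.4% of the 137 counts of Igkv12-89 and 60.6% of the 71 counts of Ighv8-12. Old KO 5 held 79.7% of Igkv4-68, and old KO 6 held 78.3% of Igkv12-98, with 36 of 46 counts. By CPM 23 V members peaked in old KO 1, 18 in old KO 5 and 10 in old WT 7, and none in a young library. A member needed 30 counts in all, and a young library held 20 to 45 counts over all kappa V members. The rule thus made a peak in a young library unlikely from the start. Segments confined to 1 or a few libraries mostly failed the count filter: of the 61 V members 10 were tested.

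Igkv14-111 had a mean of 0.696 ± 0.570 CPM (SD, n = 5) in old WT, where old WT 4 stood at 1.67 CPM, and of 0.450 ± 0.309 CPM (SD, n = 5) in old KO. It rose with age in old WT (4.03, SE 0.818, edgeR adjusted p 0.00407), by 3.42 without old WT 4. Without that library the difference between old KO and old WT was 0.03. Igkv14-126, which led in young WT 4 and 6 with 6 counts each, Igkv6-15, which shared the lead in young WT 1 with 7 counts, and Igkv1-110, with 3 counts in young WT 2, led no old library. Igkv6-15 rose in old KO against young WT (3.95, SE 0.900, edgeR adjusted p 0.00562), by 4.89 without young WT 1 and 3.30 without old KO 1.

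The 8 heavy chain V members under-represent their locus. Many heavy chain V segments carry provisional names in the annotation: 76 further heavy chain V genes held 2231 counts, compared with 826 for the 37 genes with Ighv names. Members leading a library alone were Ighv1-9, Ighv9-3, Ighv8-12 and, with 21 counts in old KO 5, Ighv1-19. In 6 libraries a pair shared the lead on 1 to 8 counts each, such as Ighv1-9 and Ighv11-2 in old WT 4 (4 counts each) and Ighv9-3 and Ighv1-54 in old KO 6 (8 counts each). Ighv1-9 had 118 of its 182 counts in old KO 1. Ighv9-3 had 51 counts in old KO 2, or 1.85 CPM against at most 0.461 CPM in the other old KO libraries. Ighv8-12 had 43 counts in old WT 7 against 1 to 2 in the other old WT libraries.

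With the provisionally named genes added, and named by their RefSeq synonyms, the leading heavy chain segment was Ighv1-81 in old KO 6, with 137 of 236 counts or 58.1% (51.5% to 64.4%). It had 15 counts in the other 14 libraries together. The library in which 1 kappa segment held 79.3% was thus also the one in which 1 heavy chain segment held more than 50%. In old WT 4 Ighv5-4 led with 33.8% (26.3% to 41.9%), and in old KO 1 Ighv1-53 led with 17.5% (15% to 20.1%). In the other old libraries the leading share was 5.61% to 18.8%. These genes were outside the symbol rule and were examined after their values had been seen. A gene with the provisional name AI324046, between Ighg1 and Ighm where Ighg3 lies, had 0 to 2 counts per young library, 3 to 61 per old WT library and 4 to 29 per old KO library.

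**Figure D5:**
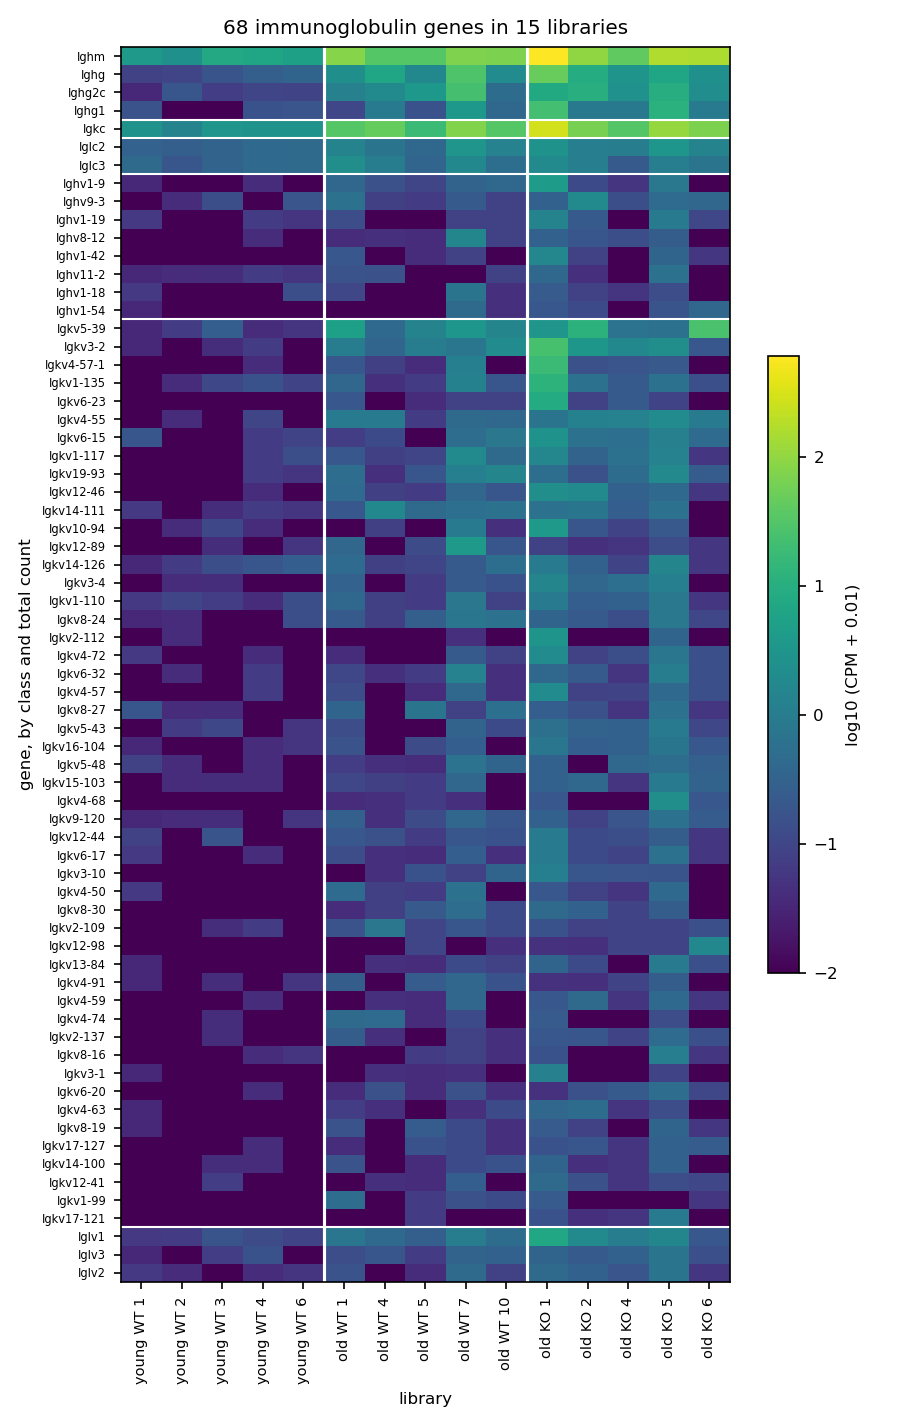
Rows are the 68 genes by class and total count and columns the 15 libraries, coloured by log10 of CPM plus 0.01; white lines part the groups and the gene classes. The young columns are dark except for the constant genes, and among the old columns single bright cells mark segments found mainly in 1 library, such as Igkv4-57-1 in old KO 1, Igkv12-89 in old WT 7 and Igkv12-98 in old KO 6.

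Genes of the cells that make antibody were read beside these values. Igj, the J chain that joins IgM and IgA into polymers, ranged over 0.482 to 1.16 CPM (young WT), 3.67 to 27.4 CPM (old WT) and 10.2 to 63.9 CPM (old KO), and rose by 4.07 in old WT (log2, SE 0.679, edgeR adjusted p 0.00134) and by 5.18 in old KO (SE 0.690, edgeR adjusted p 0.000181) against young WT, the latter being 4.55 without old KO 1. 2010001M09Rik, which is Mzb1, a chaperone of antibody secretion, rose by 1.78 in old WT (edgeR adjusted p 0.0442). Of the plasma cell list 12 of 13 genes were tested. Against young WT, 4 rose and 2 fell in old WT, where 9.92% of all genes rose. In old KO 3 rose and 1 fell, where 12.0% of all genes rose. Fkbp11 fell in both (log2 fold changes of -1.10 and -1.24). Xbp1, a secretory transcription factor that hepatocytes also express, stood at 115.4 to 198.9 CPM in all libraries.

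B cell surface and signalling genes were read in the same way. Of 13 such genes tested, 3 rose in old WT against young WT (Ms4a1, Fcrla and Spib), where 9.92% of all genes rose, and none in old KO against young WT, where 12.0% did, with median log2 fold changes of 0.71 and 0.01. Cd79a, the signalling chain of the B cell receptor, averaged 1.11 ± 0.318 CPM (young WT), 1.77 ± 1.08 CPM (old WT) and 1.64 ± 0.611 CPM (old KO; SD, n = 5 each), with overlapping ranges and no call (old WT against young WT 0.65, SE 0.377, edgeR adjusted p 0.241). Ms4a1, which encodes CD20, rose by 1.70 in old WT (SE 0.520, edgeR adjusted p 0.0324), a call lost without young WT 1, young WT 2, old WT 1 or old WT 4 (adjusted p 0.0839, 0.0786, 0.0688 and 0.101). The summed level of the 13 genes ranged over 8.18 to 16.8 CPM (young WT), 12.1 to 32.6 CPM (old WT) and 8.31 to 18.5 CPM (old KO). In old KO 1, which had the most immunoglobulin RNA, Cd79a stood at 1.91 CPM, above the young range of 0.672 to 1.54 CPM. This is 1 of the 13 genes in 1 library. The change of Cd79a in old KO against young WT passed in none of 21 alternative fits (edgeR or DESeq2 adjusted p 0.193 to 0.494).

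Of the early B-lineage, class-switch and germinal centre list, 3 of 9 genes passed the count filter, and Rag1 and Rag2, which cut DNA for V segment joining, did not. Of the antibody receptors and carriers, Pigr, which carries dimeric IgA and pentameric IgM, averaged 1974 ± 187.2 CPM (young WT), 2366 ± 375.4 CPM (old WT) and 2802 ± 303.2 CPM (old KO; SD, n = 5 each), and rose in old KO against young WT (0.51, SE 0.121, edgeR adjusted p 0.00765). Of 10 genes in that list, Pigr was the one that rose in old KO and Fcer1g, a signalling chain of Fc receptors, the one that rose in old WT, while Fcamr, a receptor for the Fc parts of IgA and IgM, fell in both (edgeR adjusted p 0.0290 and 0.0383). The median log2 fold change of the list was 0.33 in old WT and -0.17 in old KO. Of all genes tested, 9.92% rose in old WT and 12.0% in old KO.

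Signs of other cells moved with the groups as well. The 4 matched red blood cell genes could mark blood left in the tissue. Of these, 3 rose in old KO against young WT, where 12.0% of all genes rose. None rose in old WT against young WT, where 9.92% did. The summed level of the 4 ranged over 38.1 to 87.3 CPM (young WT), 65.5 to 133.6 CPM (old WT) and 87.7 to 319.3 CPM (old KO). Of 7 Kupffer cell and macrophage genes, 4 fell in old KO against old WT, where 0.533% of all genes passed in either direction. The 7 summed to 111.4 to 157.5 CPM in old KO against 180.9 to 487.3 CPM in old WT. In old WT against young WT, where 9.92% of all genes rose, 2 of 7 T cell genes and 2 of 5 pan-leukocyte genes rose. None of either list did in old KO against young WT, where 12.0% of all genes did. T cell genes summed to 2.78 to 6.73 CPM (young WT), 4.05 to 12.7 CPM (old WT) and 2.48 to 7.45 CPM (old KO), and the pan-leukocyte genes to 26.7 to 60.3, 50.4 to 73.9 and 25.3 to 49.0 CPM in the same order. The 5 pancreas genes were at 0 to 0.183 CPM in all libraries. The part of blood, Kupffer cell, T cell and other leukocyte content in the immunoglobulin values was not tested.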

How the data were processed

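RNA from whole liver was sequenced in 15 libraries, with groups and animal numbers taken from the sample titles. Poly(A) RNA was made into stranded libraries, single-end reads of 50 bases were aligned to mm9 with TopHat2 2.0.11 (per the labels), and HTSeq produced the gene counts that the authors deposited, which are neither normalized nor pooled. The annotation and strand setting of the counting were not given in the sources used here, so similar V segments are uncertain.

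Counts were TMM-scaled and tested with edgeR 4.0.16 (glmQLFit, glmQLFTest) under R 4.3.3 after filterByExpr, on all 15 libraries (14258 genes). Benjamini-Hochberg adjustment was at 0.05 over all genes. The fits kept the default prior count of edgeR. A prior count of 2 entered only the log CPM used to compare the deviations of same-numbered animals. The SE given with an edgeR fold change is the absolute log2 fold change divided by the square root of its quasi-likelihood F statistic. DESeq2 1.42.0 was an alternative. The script was tested on simulated data. Symbols and positions came from GENCODE M1, and V segment synonyms from RefSeq (GRCm38.p6). Binomial intervals are Clopper-Pearson at 95%. Igha and Ighd were not analysed here. Some marker genes are not reported here and were left out of the lists. Library totals were 21801754 to 38065359 counts, so V segments of young livers rest on single reads.

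Named genes were all constant-region members, members leading a library's kappa V or heavy chain V member counts and the 5 largest rises and falls per comparison. Members beside the 30-count limit, marker genes with a bearing on a result and Rps6kb1 were also named. Other genes were named after their values were seen. Members and lists were chosen with earlier results of these data known. Alternatives were other scalings, tests, filters, library sets and leaving out libraries. Replicate numbers did not pair the animals.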

Additional observations from a re-analysis of the deposited data

Results flagged for a closer look

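Within each group of 5 animals, 1 library was sought that stood apart from the other 4 (Dixon's ratio above 0.71). Of 84 groups examined, 16 held such a library. For normally distributed values chance flags about 1 in 20 groups, but many of these values are skewed or rest on few counts. That rate is therefore only a rough guide here, and many of these values come from the same few animals.

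Old KO 1 stood apart in the summed immunoglobulin level (1091 CPM against 93.8 to 338.3 in the other old KO libraries), in Ighm (607.4 against 41.6 to 161.1 CPM), Ighg (46.9 against 2.46 to 9.30 CPM), Ighv1-9 (4.42 against 0 to 0.797 CPM), Igkv3-2 (24.8 against 0.186 to 3.38 CPM) and the summed kappa V segments (100.8 against 10.5 to 32.9 CPM). Old WT 7 stood apart in Ighg (29 against 1.67 to 6.44 CPM), Ighg1 (3.52 against 0.0937 to 0.925 CPM), Ighg2c (23.8 against 0.478 to 3.55 CPM), Ighv8-12 (1.58 against 0.0298 to 0.0735 CPM) and Igkv12-89 (3.89 against 0 to 0.375 CPM). Old KO 2 stood apart in Ighv9-3 (1.85 against 0.129 to 0.461 CPM).

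Among young libraries, young WT 2 was low in Igkc (1.37 against 2.72 to 3.10 CPM). Young WT 3 was high in Igkv5-39 (0.261 against 0.0263 to 0.0611 CPM), young WT 4 had the only young count of Ighv8-12 (0.0301 CPM), and in young WT 4 50% of the kappa V counts lay in 8 segments against 4 to 5 elsewhere. These last values rest on 1 to 45 counts.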

How the results depend on the processing

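The count of members called in old WT against young WT (13) was 24 of 68 with no filter on low counts, 8 of 8 tested with only the 10 libraries compared, 6 with the animal number as a replicate block, and 9 to 14 with each library left out. In old KO against young WT (16) it was 53 of 68 with no filter and 10 of 10 with 10 libraries. Old KO against old WT had 0 in every fit. Same-numbered animals did not deviate together (correlations of -0.153 to 0.077). Without each library's most abundant member the median sum was 5.74 CPM in young WT and 51.9 in old WT. With every annotated kappa V segment, young WT needed 7 segments for 50% of the counts and its top share was 13.2%. After thinning, old WT needed 3.44 kappa and 4.19 heavy chain segments. Keeping kappa segments with over 50% of their windows unique, chosen after seeing the data, moved no median by more than 1 SD.

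Directions turned as follows, none of them past the threshold. In old KO against old WT, Igkv5-39 was -0.51 and Cd79a 0.17 with the block. With 1 library left out, Cd79a was -0.26 to 0.19, Igkv14-111 -0.83 to 0.03 (0.03 without old WT 4), Ighg2c -0.19 to 1.88 (1.88 without old WT 7), Ighg -0.64 (without old KO 1) to 2.13 (without old WT 7) and Iglc3 -0.61 to 0.16. In old WT against young WT, Igkv6-15 was -0.91 with the block, and Rps6kb1, with a main value of 0.00, was -0.00 with RLE scaling or DESeq2, -0.02 with the block, -0.01 with 10 libraries and -0.06 to 0.04 with 1 library left out. The causes were not tested.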
